A study of Mus musculus with 12 samples.

Results

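The genes described here are those by which adipocytes take up fatty acids and bind them inside the cell, together with Aqp7, a glycerol channel. They were taken from the gene table by symbol and number 9 of the 55573 genes counted: Lpl, Cd36, Slc27a1, Slc27a3, Slc27a4, Fabp3, Fabp4, Fabp5 and Aqp7. RNA was sequenced from adipocytes grown in culture out of stromal vascular cells, the mixed cells of mouse subcutaneous fat other than its adipocytes. There were 3 genotypes with 4 libraries each, all on the C57BL/6 background and all homozygous: wild type (WT), PPARγ T166A (TA), in which threonine is replaced by alanine so that the site cannot be phosphorylated, and PPARγ T166D (TD), in which aspartate stands for the phosphorylated residue. Both alleles are CRISPR-Cas9 knock-ins carried in every cell of the mouse, so the precursor cells bore them before and during differentiation. All 3 genotypes had the same medium, which held 850 nM insulin, 1 nM T3, 0.5 mM IBMX, 125 nM indomethacin and dexamethasone (whose dose is given in different units in the labels and in the methods), was changed to insulin and T3 alone on day 4, and was followed by harvest on day 8. The sources used here do not give the age of the mice that supplied these cells, nor whether the 4 libraries of a genotype come from separate mice, so the p-values measure the spread between libraries, which may be technical.

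Adipocytes obtain fatty acids mainly from circulating triglyceride. Lipoprotein lipase, made by the adipocyte and carried to the capillary wall, frees the fatty acids; CD36 and the fatty acid transport proteins of the Slc27a family bring them across the membrane, the latter also as acyl-CoA synthetases that trap them as CoA esters; and small cytoplasmic proteins of the FABP family carry them through the cell. Aquaporin 7 lets out the glycerol that lipolysis releases. Several of these genes, among them Fabp4, Cd36, Lpl and Aqp7, are textbook targets of PPARγ, the nuclear receptor that drives adipocyte differentiation.

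The 3 FABP genes are related in sequence, and their counts depend on reads being told apart. Over their coding sequences Fabp3 and Fabp4 shared 66.5% of aligned bases, Fabp4 and Fabp5 61.4%, and Fabp3 and Fabp5 58.2%. The longest run of bases common to a pair of their transcripts was 14 bases. Below are 90 bases near the start of each coding sequence from the GENCODE M21 transcripts, beginning at coding base 16 in Fabp4 and Fabp3 and at coding base 22 in Fabp5. They are shown because the counts of the 3 genes rest on telling such stretches apart, and capitals mark the 46 bases that are the same in all 3.
Fabp4: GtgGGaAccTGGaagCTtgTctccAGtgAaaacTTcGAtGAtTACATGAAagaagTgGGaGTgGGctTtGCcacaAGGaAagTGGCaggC
Fabp5: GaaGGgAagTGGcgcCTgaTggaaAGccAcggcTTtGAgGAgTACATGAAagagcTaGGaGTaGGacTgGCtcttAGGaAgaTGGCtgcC
Fabp3: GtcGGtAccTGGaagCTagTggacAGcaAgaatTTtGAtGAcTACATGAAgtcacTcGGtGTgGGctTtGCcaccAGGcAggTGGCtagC
Among the transporters, Slc27a1 and Slc27a4 shared 67.4% of aligned coding bases and no run longer than 26, and Slc27a3 shared 59.3% with Slc27a1 and 59.2% with Slc27a4.

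The RefSeq promoter table (GRCm38.p6) held starts for 6 of the 9 genes: Cd36, Slc27a1, Slc27a3, Slc27a4, Fabp3 and Aqp7; it was not used for Fabp4, Fabp5 and Lpl. The 250 bases before the start are printed for Cd36, which was lower in TD, and for Slc27a1 and Slc27a4, its paralog, both called higher in TA. The Cd36 start in this table lies inside the GENCODE gene, which begins at 17888801 on the minus strand. Its window is thus not the region before the outermost start of Cd36. Only windows that overlap no annotated exon are shown. Both strands were searched for AGGTCA, the half-site of nuclear receptors, for a pair of such half-sites with 1 base between them (the DR1 arrangement that PPARγ binds with RXR), and for the CCAAT box, the GC box GGGCGG and the TATA sequence TATAAA; matches are in capitals.
Cd36, chr5:17835897-17836146, minus strand: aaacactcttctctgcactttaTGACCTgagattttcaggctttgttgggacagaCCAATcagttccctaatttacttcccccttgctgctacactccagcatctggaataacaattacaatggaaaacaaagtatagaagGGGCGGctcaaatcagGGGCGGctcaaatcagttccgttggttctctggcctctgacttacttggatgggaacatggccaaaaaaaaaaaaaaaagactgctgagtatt
Slc27a1, upstream start, chr8:71568621-71568870, plus strand: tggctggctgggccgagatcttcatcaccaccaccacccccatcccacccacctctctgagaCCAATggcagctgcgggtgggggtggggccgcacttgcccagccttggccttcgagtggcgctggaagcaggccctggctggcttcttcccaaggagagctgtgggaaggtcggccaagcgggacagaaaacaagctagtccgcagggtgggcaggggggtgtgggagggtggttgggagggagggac
Slc27a1, downstream start, chr8:71570344-71570593, plus strand: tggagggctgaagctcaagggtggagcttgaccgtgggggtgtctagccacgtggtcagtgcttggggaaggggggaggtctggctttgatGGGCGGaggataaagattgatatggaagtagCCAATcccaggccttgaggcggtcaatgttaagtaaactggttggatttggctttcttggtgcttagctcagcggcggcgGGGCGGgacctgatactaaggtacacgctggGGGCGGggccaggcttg
Slc27a4, chr2:29802384-29802633, plus strand: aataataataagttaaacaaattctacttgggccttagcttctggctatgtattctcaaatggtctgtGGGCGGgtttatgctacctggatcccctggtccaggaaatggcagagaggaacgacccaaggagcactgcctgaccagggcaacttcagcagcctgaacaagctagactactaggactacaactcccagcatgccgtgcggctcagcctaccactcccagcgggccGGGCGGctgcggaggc
The half-site AGGTCA was found once in the Cd36 window and in none of the windows of Slc27a1 or Slc27a4. Aqp7, also called higher in TA, had it 1 and 2 times in its windows, which overlap each other so that 1 site is counted in both. They also overlap annotated exons and are not shown. The window of Slc27a3, also not shown, held it 0 times. AGGTCA is present in 14% of the 32851 RefSeq windows of this length, and the DR1 pair, which none of the 4 windows held, in 0.0335%. CCAAT occurred in the Cd36 window and in both Slc27a1 windows shown, and in 33.8% of all windows. A further Slc27a1 window, which overlaps an annotated exon and is not shown, held CCAAT 0 times and GGGCGG 1 time. GGGCGG occurred 2 times in the Cd36 window, 2 times in that of Slc27a4 and 3 times in the downstream Slc27a1 window, and in 32.7% of all windows. TATAAA was found in none of the 4, against 12.4% of all windows. These are letter matches in short windows and say nothing of binding there or elsewhere.

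Libraries held 16553324 to 20324286 counts. Levels are given as CPM, counts relative to library size after TMM scaling of the library sizes, and differences as log2 fold changes with their standard errors. A difference was called when the adjusted p of edgeR's quasi-likelihood test, over the 15117 genes that passed a filter on low counts, was under 0.05. Of the 9 genes, 8 passed the filter and Fabp3 did not. Over all genes, the share called higher in TD than in WT was 15.1% and the share called lower 14.2%. For TA against WT these were 6.72% and 4.41%, and in TD against TA 7.33% and 9.37%. With library sizes left unscaled the calls were higher for 64.5% in TD against WT in place of 51.5%, and for 64.6% in TD against TA in place of 43.9% (54.3% with no filter), so directions below are relative to the TMM scale. The comparisons share libraries, and each is given by its own values.

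Of the 8 genes tested, 5 were lower in TD than in WT (Lpl, Cd36, Fabp4, Fabp5 and Aqp7) and 1 was higher (Slc27a3). Between TA and WT, 5 were higher in TA (Slc27a1, Slc27a3, Slc27a4, Fabp5 and Aqp7) and 0 lower, with 1 lower at an unadjusted p under 0.05 and 1 lower by DESeq2, Lpl in both cases. In TD against TA, 6 were lower (Cd36, Slc27a1, Slc27a4, Fabp4, Fabp5 and Aqp7) and 0 higher, also 0 at an unadjusted p under 0.05 and 0 by DESeq2. The median log2 fold change of the 8 was -0.43 in TD against WT, where that of all genes tested was 0.01. It was 0.35 in TA against WT, where that of all genes was -0.01, and -0.64 in TD against TA, where that of all genes was 0.02.

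**Figure D1:**
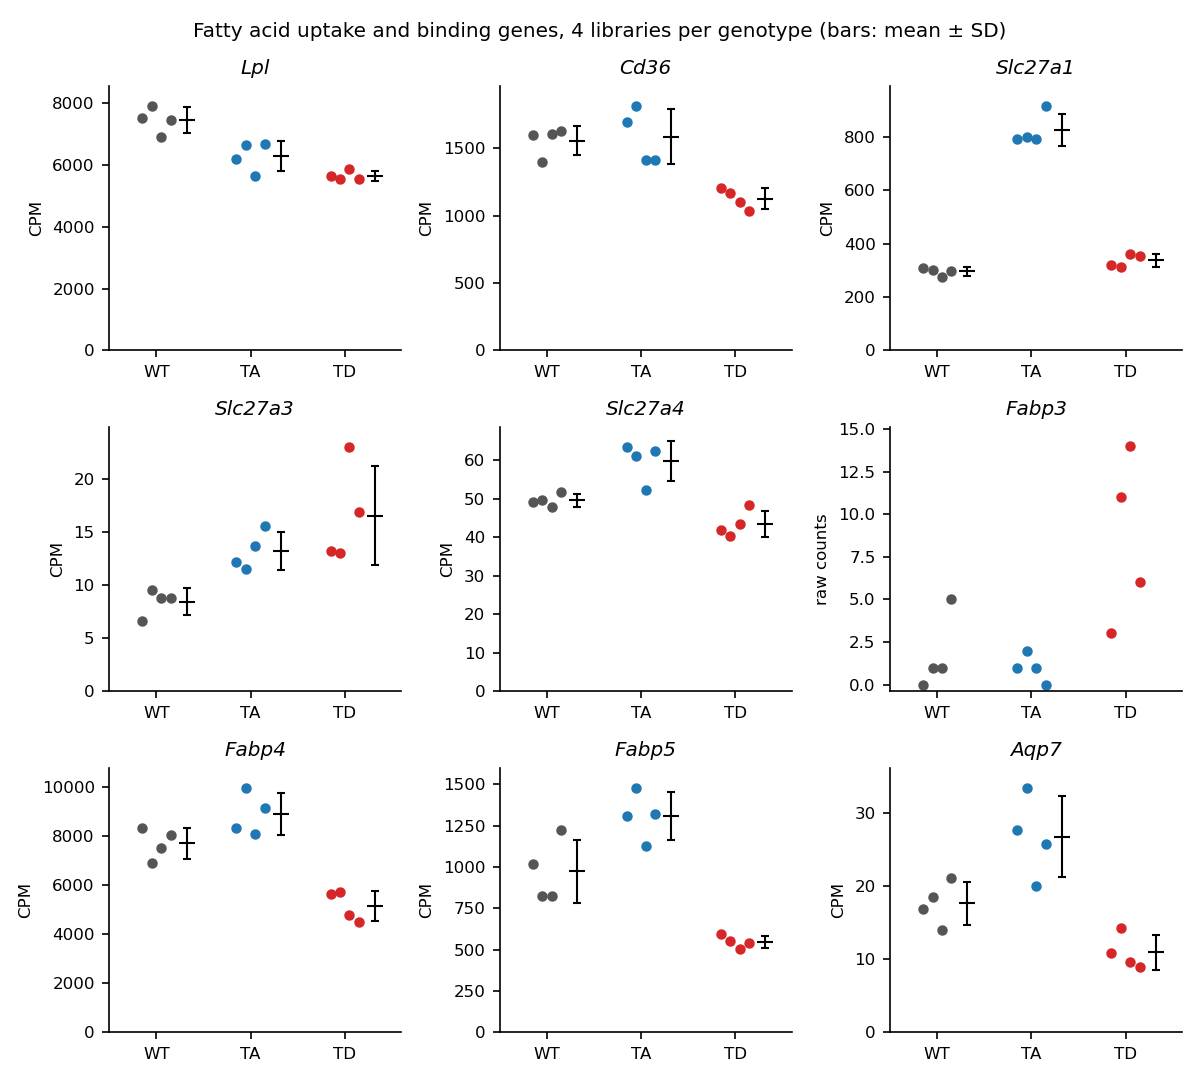
Level of each of the 9 genes (CPM, and raw counts for Fabp3) in the 4 WT, 4 TA and 4 TD libraries, with a point for each library and bars for the mean ± SD. Slc27a1 lies at 794 CPM or more in the TA libraries and at 363 CPM or less in the others, while Fabp4, Fabp5 and Cd36 are lowest in the TD libraries.

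Lipoprotein lipase, the enzyme that frees fatty acids from lipoprotein triglyceride, was lower in TD. Lpl (chr8:68880491-68907448, plus strand) had 7504, 7921, 6909 and 7444 CPM in the 4 WT libraries, 6183, 6656, 5648 and 6667 in TA, and 5632, 5558, 5872 and 5534 in TD. Every WT library was above every TA and TD library, and TA and TD overlapped. The mean was 7444 ± 415 (SD, n = 4) in WT, 6289 ± 483 in TA and 5649 ± 154 in TD. This fall in TD against WT was called, at a log2 fold change of -0.40 ± 0.09 (adjusted p = 0.0029). The value in TA against WT was -0.24 ± 0.09 (adjusted p = 0.084 with edgeR and 0.00479 with DESeq2), so that call depends on the tool, and that in TD against TA was -0.15 ± 0.09 (adjusted p = 0.24).

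Cd36, the scavenger receptor that binds long-chain fatty acids at the plasma membrane, was lower in TD than in both other genotypes. The gene (chr5:17781690-17888801, minus strand) had 1597, 1399, 1604 and 1631 CPM in WT, 1695, 1818, 1417 and 1414 in TA, and 1207, 1167, 1100 and 1038 in TD. All TD libraries were below all others, and WT and TA overlapped. The log2 difference was -0.47 ± 0.10 in TD against WT (adjusted p = 0.002) and -0.49 ± 0.10 in TD against TA (adjusted p = 0.0027). In TA against WT it was 0.03 ± 0.10 (adjusted p = 0.91), with a sign that turned when single libraries were left out. Without TD 3 and TD 4 together, the libraries with the most skeletal muscle marker counts, both calls were lost, at -0.39 (adjusted p = 0.061) and -0.42 (adjusted p = 0.0769). That setting has fewer libraries. Over all genes it called 1516 in TD against WT in place of 4418, and 634 in TD against TA in place of 2524.

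Of the 3 transporters of the Slc27a family, Slc27a1 and Slc27a4 shared their calls (up in TA against WT, down in TD against TA), while Slc27a3 was up in both mutants against WT. Slc27a1, which encodes FATP1, the insulin-responsive transporter of adipocytes and muscle, lies at chr8:71568882-71587302 on the plus strand. It had 309, 303, 274 and 298 CPM in WT, 794, 801, 794 and 918 in TA, and 319, 313, 363 and 355 in TD. TA libraries stood apart from the other 8, and the TD libraries lay just above the WT libraries without overlap. Slc27a1 was 2.79 times as high in TA as in WT (log2 fold change 1.48 ± 0.08, adjusted p = 1.6e-08), and in TD against TA it fell by 1.29 on the log2 scale (SE 0.08, adjusted p = 6.2e-08). Both calls held without any 1 library and without TD 3 and TD 4. In TD against WT the value was 0.19 ± 0.08 and was not called (adjusted p = 0.079), but it was called with unscaled library sizes (adjusted p = 0.0204) and with the WT and TD libraries alone (adjusted p = 0.0449).

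Slc27a3, whose product FATP3 has acyl-CoA synthetase activity, was higher in both mutants than in WT, at much lower levels. This gene (chr3:90385239-90389938, minus strand) had 6.58, 9.57, 8.81 and 8.81 CPM in WT, 12.2, 11.5, 13.7 and 15.5 in TA, and 13.2, 13, 23 and 16.9 in TD. No WT library reached the TA or TD libraries, and TD 3 was the highest of the 12. The log2 difference was 0.97 ± 0.18 in TD against WT (adjusted p = 0.00083) and 0.65 ± 0.18 in TA against WT (adjusted p = 0.026). In TD against TA it was 0.32 ± 0.17 (adjusted p = 0.22), and -0.01 without TD 3 and TD 4. The TA call was lost without WT 1, WT 3 or TA 4, with adjusted p-values of 0.089, 0.0519 and 0.0781, and without WT 2 and TA 3 together (adjusted p = 0.0504).

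Slc27a4, which encodes FATP4, another very-long-chain acyl-CoA synthetase of internal membranes, was higher in TA than in the other genotypes. The gene lies at chr2:29802634-29817522 on the plus strand and had 49.1, 49.7, 47.9 and 51.9 CPM in WT, 63.6, 61.2, 52.2 and 62.4 in TA, and 41.9, 40.5, 43.6 and 48.3 in TD. Each TA library lay above each WT library, TA 3 by the least, and the TD and WT libraries overlapped at TD 4. The log2 difference was 0.27 ± 0.08 in TA against WT (adjusted p = 0.034), -0.46 ± 0.08 in TD against TA (adjusted p = 0.001) and -0.19 ± 0.08 in TD against WT (adjusted p = 0.082). The TA call was lost with no filter on low counts (adjusted p = 0.0643), with the 2 genotypes alone (adjusted p = 0.0596) and without WT 1, WT 2, WT 3, TA 1, TA 2 or TA 4, where the adjusted p ran from 0.0627 to 0.104. Without TD 4 the fall in TD against WT was called (adjusted p = 0.0477).

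Of the binding proteins, Fabp4 (aP2), the abundant cytoplasmic carrier of adipocytes, was lower in TD than in the other genotypes. Fabp4 (chr3:10204088-10208576, minus strand) had 8323, 6905, 7515 and 8056 CPM in WT, 8343, 9974, 8098 and 9135 in TA, and 5628, 5727, 4770 and 4515 in TD. All TD libraries lay below all others. The log2 difference was -0.58 ± 0.11 in TD against WT (adjusted p = 0.00098), -0.78 ± 0.11 in TD against TA (adjusted p = 0.00018) and 0.21 ± 0.11 in TA against WT (adjusted p = 0.25).

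Fabp5, the epidermal-type carrier found in adipocytes and in macrophages, was lower in TD than in both other genotypes and higher in TA than in WT. It lies at chr3:10012548-10016607 on the plus strand, on the chromosome that also holds Fabp4, and had 1018, 827, 828 and 1227 CPM in WT, 1309, 1481, 1128 and 1324 in TA, and 594, 556, 507 and 540 in TD. The 4 TD values were the lowest of the 12, and TA 3 fell short of WT 4. The log2 difference was -0.83 ± 0.12 in TD against WT (adjusted p = 0.0002), -1.25 ± 0.12 in TD against TA (adjusted p = 6.5e-06) and 0.43 ± 0.12 in TA against WT (adjusted p = 0.028). The TA call was lost with the 2 genotypes alone (adjusted p = 0.0643) and without WT 1, WT 2, WT 3, TA 1, TA 2 or TA 4, where the adjusted p ran from 0.0551 to 0.0944. Of its stretches of 50 bases, 21.1% also occur in other genes, most of them in Gm6166, which had a mean of 53.1 counts.

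Fabp3, the heart and muscle carrier, was near the limit of detection. At chr4:130308595-130315463 on the plus strand it had 0, 1, 1 and 5 counts in WT, 1, 2, 1 and 0 in TA, and 3, 11, 14 and 6 in TD. Counts in TD lay above those of TA, and TD 1 lay below WT 4. With no filter on low counts the adjusted p was 0.0493 in TD against WT, 0.0203 in TD against TA and 0.84 in TA against WT. The counts are uncertain: its exons overlap by up to 81 bases with those of Zcchc17 on the opposite strand, which had a mean of 384 counts, the strand setting of the counting is not given in the sources used here, and 29.2% of its stretches of 50 bases occur in the pseudogene Fabp3-ps1. Skeletal muscle markers summed to 17.9 to 250 CPM in TD and 5.31 to 11.9 CPM in WT, and their part in these counts was not tested.

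Aqp7, the glycerol channel of adipocytes, was higher in TA and lower in TD than in WT. The gene (chr4:41033074-41048139, minus strand) had 16.9, 18.5, 14 and 21 CPM in WT, 27.6, 33.4, 20 and 25.7 in TA, and 10.9, 14.3, 9.62 and 8.96 in TD. TA and TD libraries did not overlap, while WT overlapped with TA at TA 3 and with TD at TD 2. The log2 difference was -0.68 ± 0.17 in TD against WT (adjusted p = 0.0071), 0.60 ± 0.16 in TA against WT (adjusted p = 0.026) and -1.28 ± 0.17 in TD against TA (adjusted p = 0.00014). The TA call against WT was lost without WT 1, WT 3, TA 1 or TA 2, where the adjusted p ran from 0.0654 to 0.0855. The TD call against WT was lost without TD 3 and TD 4 together, a setting with fewer libraries (-0.48, adjusted p = 0.145).

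**Figure D2:**
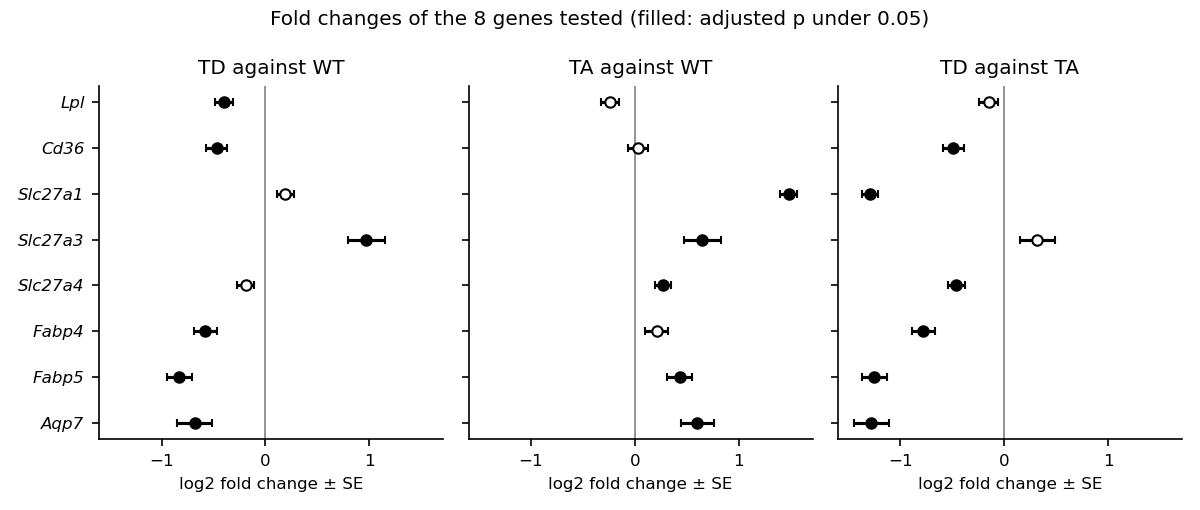
Log2 fold changes (horizontal axis, ± SE) of the 8 tested genes in TD against WT, TA against WT and TD against TA. Filled points have an adjusted p under 0.05. Slc27a1 has the largest rise in TA, at 1.48, and Slc27a3 is the one gene above 0 with a filled point in TD against WT, at 0.97.

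By the plain separation of libraries, 4 of the 8 tested genes had every TD library below every WT library (Lpl, Cd36, Fabp4 and Fabp5), where 16.4% of all genes did, and 2 had every TD library above (Slc27a1 and Slc27a3), where 15.8% did. For TA against WT, 3 separated upward (Slc27a1, Slc27a3 and Slc27a4), where 7.71% of all genes did, and Lpl separated downward, where 5.85% did. In TD against TA, 6 separated downward, against 10.6% of all genes, and 0 upward, against 9.32%.

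Levels of different genes were compared per kilobase of the principal GENCODE transcript. In WT the order was Fabp4 at 8594 ± 701 CPM per kb (SD, n = 4), Lpl at 1809 ± 101, Fabp5 at 988 ± 193, Cd36 at 458 ± 31.4, Slc27a1 at 106 ± 5.43, Slc27a4 at 12.2 ± 0.415, Aqp7 at 6.97 ± 1.15 and Slc27a3 at 3.74 ± 0.572. No neighbours in this order overlapped between their lowest and highest libraries in WT. In TA the order was the same, with Lpl at 1373 to 1620 CPM per kb and Fabp5 at 1143 to 1501, which overlapped, as did Slc27a4 at 12.9 to 15.7 and Aqp7 at 7.9 to 13.2. Slc27a1 stood at 296 ± 21.8 CPM per kb in TA. In TD, Slc27a3 at 7.32 ± 2.07 CPM per kb ranked above Aqp7 at 4.33 ± 0.934, and the 2 did not overlap, while Slc27a3 at 5.77 to 10.2 overlapped with Slc27a4 at 10 to 11.9. The order of Fabp5 and Cd36 depended on the length used: over the union of all annotated exons, which includes retained introns, Cd36 was above Fabp5, at 434 against 273 CPM per kb in WT.

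**Figure D3:**
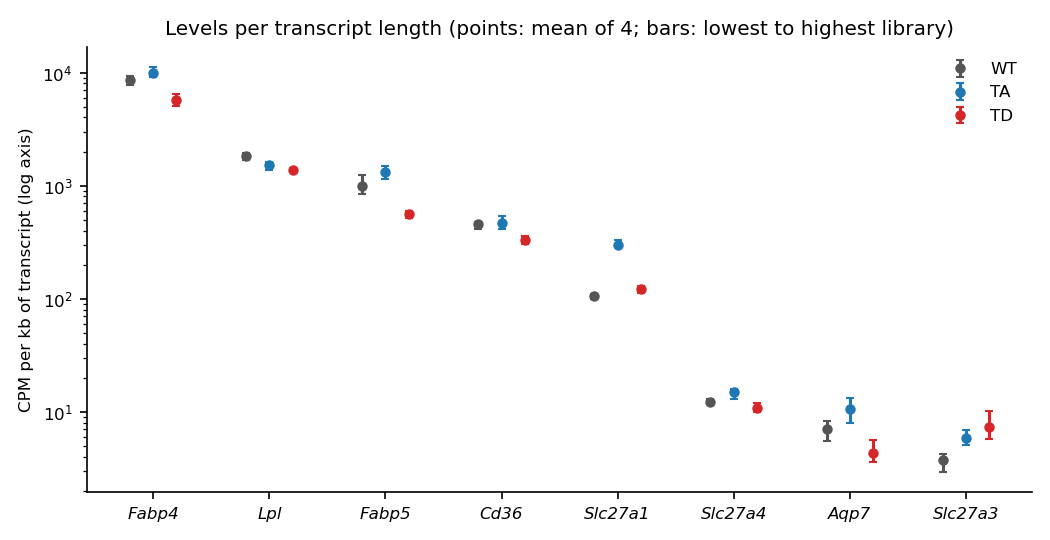
Level of the 8 tested genes in CPM per kb of transcript (log axis), as the mean of 4 libraries with bars from the lowest to the highest library, for WT, TA and TD. Fabp4 is highest in each genotype, at 8594 in WT, and the order of Aqp7 and Slc27a3 is turned in TD.

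Fabp4 and Lpl made up most of the RNA counted for the 9 genes: 82.7% to 85% in WT, 78.8% to 80.8% in TA and 83.4% to 84.3% in TD. Together the 9 genes took 1.71% to 1.83% of all counts in WT, 1.74% to 2% in TA and 1.24% to 1.4% in TD. Each TD library was thus below each of the other 8.

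Ratios of counts within a library do not depend on the scaling of library sizes and are given as a description. Slc27a1 had 5.73 to 6.29 counts for each count of Slc27a4 in WT, 12.5 to 15.2 in TA and 7.36 to 8.32 in TD, with no overlap between genotypes. The ratio of Slc27a3 to Slc27a4 was 0.134 to 0.193 in WT, 0.189 to 0.263 in TA and 0.316 to 0.528 in TD. That of TD was above that of the other genotypes in every library. Fabp5 relative to Fabp4 was 0.11 to 0.152 in WT, 0.139 to 0.157 in TA and 0.0971 to 0.12 in TD, so TA and TD were apart and WT overlapped with both. Lpl relative to Cd36 was 4.31 to 5.66 in WT, 3.65 to 4.71 in TA and 4.67 to 5.34 in TD. Angptl4, an inhibitor of lipoprotein lipase, relative to Lpl was 0.0323 to 0.0392 in WT, 0.0302 to 0.0409 in TA and 0.0333 to 0.0418 in TD, which overlapped throughout.

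**Figure D4:**
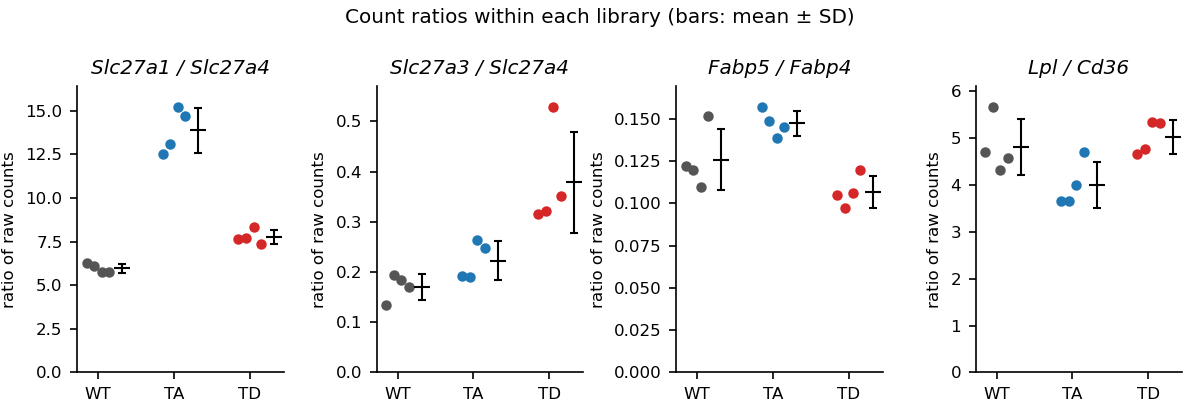
Ratio of raw counts of 2 genes within each library, for WT, TA and TD, with bars for the mean ± SD. The ratio of Slc27a1 to Slc27a4 is 12.5 or more in the TA libraries and 8.32 or less in the others.

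The genes that act on or beside lipoprotein lipase did not move as 1 group. Of 17 such genes 14 were tested. In TD against WT, 4 were higher and 5 lower (over all genes, 15.1% and 14.2%), with a median log2 fold change of 0.09. In TA against WT, 4 were higher and 1 lower (over all genes, 6.72% and 4.41%), with a median of 0.11. In TD against TA, 0 were higher (3 at an unadjusted p under 0.05) and 5 lower, with a median of -0.08. Over all genes 7.33% were called higher there and 9.37% lower. Gpihbp1, the endothelial protein that carries lipoprotein lipase to the capillary lumen, was higher in TD than in WT at 1.39 ± 0.30 (adjusted p = 0.0026), from 0.766 to 2.38 CPM in WT to 4.04 to 5.39 CPM in TD; the summed endothelial markers were at 37.5 to 66.4 CPM in WT and 117 to 148 CPM in TD, and their part in it was not tested. Lmf1, the chaperone that folds the lipase, was lower at -0.35 ± 0.09 (adjusted p = 0.0075), and so was Angptl4 at -0.38 ± 0.12 (adjusted p = 0.023). Apoc3, an inhibitor of the lipase, had the largest fall in TD against WT, at -1.92 ± 0.21 (adjusted p = 5.7e-05). Apoc2, its cofactor, was not tested and had at most 0.0586 CPM.

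In TA against WT, Lipg (endothelial lipase) had the largest rise of these 14 genes, at 1.70 ± 0.36 (adjusted p = 0.0058), with 3.66 to 8.18 CPM in TA and 0.693 to 3.08 in WT. Apoe, the ligand of lipoprotein receptors, rose by 1.10 ± 0.15 (adjusted p = 0.00012), and in TD against TA it was at -0.88 ± 0.15 (adjusted p = 0.00084). Pcsk6, a proprotein convertase, was the gene that fell in TA, at -1.16 ± 0.16 (adjusted p = 0.00017). It was lower in TD against WT as well, at -1.25 ± 0.16 (adjusted p = 0.0001). Vldlr, the receptor for very-low-density lipoprotein, had values of 0.13 ± 0.08 in TD against WT (adjusted p = 0.24) and -0.04 ± 0.08 in TA against WT (adjusted p = 0.79).

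Among 13 partners of CD36 and components of caveolae, all tested, 0 were higher in TD than in WT (0 at an unadjusted p under 0.05) and 3 were lower. Their median was -0.04, and over all genes 15.1% were called higher and 14.2% lower. For TA against WT 2 were higher and 2 lower (over all genes, 6.72% and 4.41%). In TD against TA 1 was higher and 2 lower (over all genes, 7.33% and 9.37%). Cav2, a caveolin, had the largest fall in TD against WT, at -0.47 ± 0.14 (adjusted p = 0.015), while Cav1, the main caveolin, was at -0.27 ± 0.10 (adjusted p = 0.055). Cavin3, a coat protein of caveolae, was lower in TA alone: it had 121 to 142 CPM in WT, 83 to 91.9 in TA and 121 to 139 in TD, at -0.59 ± 0.07 in TA against WT on the log2 scale (adjusted p = 4.9e-05) and 0.55 ± 0.07 in TD against TA (adjusted p = 0.00012). Scarb1, the scavenger receptor for HDL, rose in TA by 0.43 ± 0.09 (adjusted p = 0.0073). Cavin1, Zdhhc5 (the palmitoyltransferase of CD36) and Got2 (the mitochondrial aminotransferase also described as a membrane fatty acid-binding protein) lay between -0.11 and 0.10 in the 3 comparisons and were not called.

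Other lipid-binding proteins numbered 17, of which 9 were tested. In TD against WT 2 were lower, in TA against WT 1 was higher and 0 lower (0 at an unadjusted p under 0.05), and in TD against TA 0 were higher (0 at an unadjusted p under 0.05) and 2 lower. Over all genes, 14.2% were lower in TD against WT, and 6.72% were higher and 4.41% lower in TA against WT. For TD against TA the shares were 7.33% higher and 9.37% lower. Dbi, the acyl-CoA-binding protein, was lower in TD than in WT, at -0.62 ± 0.10 (adjusted p = 0.00036). Scp2, which transfers sterols and fatty acyl-CoA, rose in TA against WT by 0.40 ± 0.08 (adjusted p = 0.0049) and in TD against TA stood at -0.77 ± 0.08 (adjusted p = 1.8e-05). It was also lower in TD than in WT, at -0.37 ± 0.08 (adjusted p = 0.0033). Crabp2, a carrier of retinoic acid, had at most 1.99 CPM and Pmp2, the FABP of myelin, at most 0.0992 CPM.

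Of 8 further acyl-CoA synthetases 5 were tested. Acsl1, the main long-chain acyl-CoA synthetase of adipocytes, was the one gene called: it had 1120 to 1985 CPM in WT, 2110 to 2564 in TA and 1122 to 1443 in TD. It rose by 0.64 ± 0.14 in TA against WT (adjusted p = 0.0065) and in TD against TA was at -0.94 ± 0.14 (adjusted p = 0.00031), while in TD against WT it was at -0.30 ± 0.14 (adjusted p = 0.11). Slc27a2, the family member of liver, had at most 0.737 CPM. Of the other glycerol channels and glycerol kinase, 2 of 4 were tested, and Gk, which phosphorylates glycerol, was lower in TD than in WT at -0.53 ± 0.12 (adjusted p = 0.0046). Aqp3 and Aqp9 had at most 0.0555 and 0.57 CPM.

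**Figure D5:**
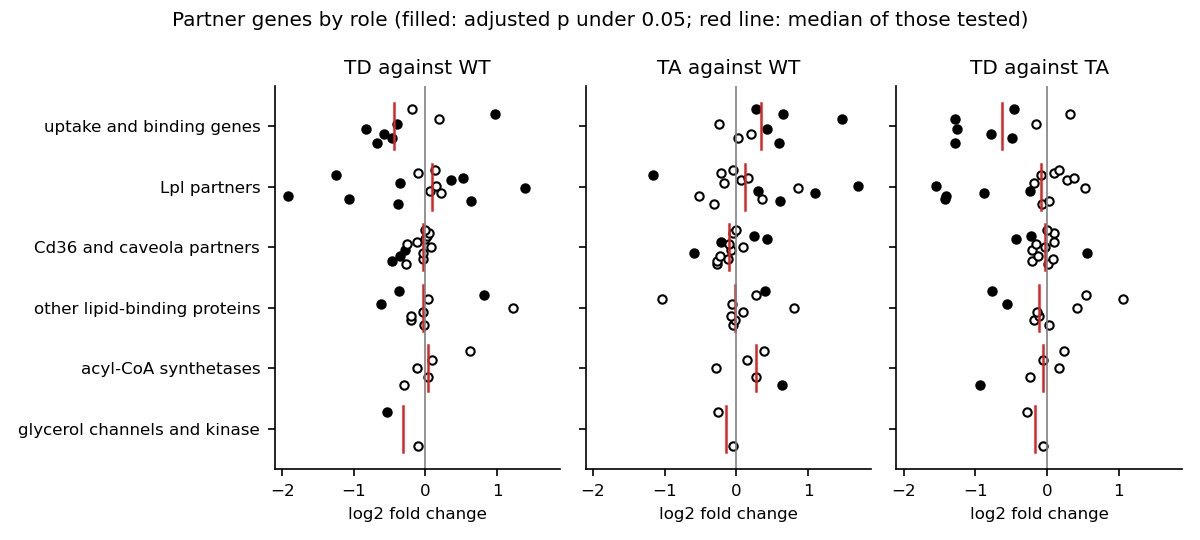
Log2 fold changes (horizontal axis) of the tested genes in each role, one point a gene, filled where the adjusted p is under 0.05, with a red line at the median of each role. The 8 genes tested have medians of -0.43, 0.35 and -0.64 in the 3 comparisons, while the CD36 and caveola partners have medians of -0.04, -0.10 and -0.03.

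The adipocyte identity of the cultures was read from 10 markers, all tested and found in every library. Their summed level was 6816 to 8208 CPM in WT, 5882 to 8438 in TA and 4965 to 5829 in TD, so every TD library was below every other. In TD against WT 8 of the 10 were lower, with a median log2 fold change of -0.41, in TA against WT 1 was higher and 1 lower, and in TD against TA 1 was higher and 6 lower. Pparg itself was at -0.58 ± 0.09 in TD against WT (adjusted p = 0.00043), Adipoq (adiponectin) at -0.28 ± 0.09 (adjusted p = 0.025) and Plin1 (perilipin 1 of the lipid droplet) at -0.36 ± 0.10 (adjusted p = 0.0093). In bulk RNA, fewer adipocytes and less RNA of these genes in each adipocyte cannot be told apart.

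Relative to the mean log2 level of these 10 markers in the same library, a scale chosen after the values were seen and used with no test, Cd36, Lpl and Fabp4 no longer separated between TD and WT, while Aqp7 overlapped on both scales and Fabp5 separated on both. The markers' mean differed by -0.48 between TD and WT. On this scale Cd36 differed by 0.01, Lpl by 0.08, Fabp4 by -0.10 and Aqp7 by -0.21 between TD and WT, and the libraries of the 2 genotypes overlapped for these 4 genes. Fabp5 differed by -0.33, and Slc27a1, Slc27a3 and Slc27a4 by 0.67, 1.41 and 0.29, each without overlap. In TA against WT the markers' mean differed by -0.09, and 6 of the 8 genes were above WT without overlap: Slc27a1 by 1.57, Slc27a3 by 0.74, Aqp7 by 0.68, Fabp5 by 0.53, Slc27a4 by 0.36 and Fabp4, which overlapped on the CPM scale, by 0.30. The list holds Pparg and several of its targets, so it is not a neutral measure of adipocyte number.

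Markers of other cells differed as well. Endothelial markers (8 genes) summed to 37.5 to 66.4 CPM in WT, 65.2 to 106 in TA and 117 to 148 in TD, and 7 of 8 were higher in TD than in WT. Fibroblast and preadipocyte markers (8 genes, 7 tested) summed to 9006 to 12278 CPM in WT, 10225 to 18363 in TA and 15484 to 23429 in TD, with 6 higher in TD than in WT and Dlk1 at 0 in 11 of the 12 libraries. Skeletal muscle markers (8 genes, 7 tested) summed to 5.31 to 11.9 CPM in WT, 16.9 to 66.4 in TA and 17.9 to 250 in TD, highest in TD 3 and TD 4; all 7 were higher in TD than in WT, and Myod1 was at 0 in 9 libraries. Macrophage markers (8 genes) summed to 272 to 796 CPM in WT, 132 to 580 in TA and 611 to 853 in TD, and 0 of 8 were called in TD against WT, with 2 higher at an unadjusted p under 0.05, and 0 in TA against WT, with 4 lower at an unadjusted p under 0.05. In TD against TA, where 6 of the 8 genes described were lower, 3 of the 8 macrophage markers were called higher (Cd68, Mrc1 and Lyz2); 7 were higher at an unadjusted p under 0.05, and the 3 called rose by 0.98 ± 0.29, 1.68 ± 0.48 and 1.07 ± 0.32 on the log2 scale. Of the endothelial, muscle and fibroblast markers, 3, 4 and 2 were called higher in TD against TA and 4, 4 and 5 in TA against WT, with 0 lower in either (also 0 at an unadjusted p under 0.05). The share of counts from mitochondrially encoded genes was 4.92% to 5.88% in WT, 2.74% to 4.5% in TA and 2.86% to 3.57% in TD, and every call on the 8 genes was the same with those genes left out. The part of these other cells in the levels of the 9 genes was not tested.

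The genes most like each member in profile were sought among the 9030 tested genes that averaged 10 CPM or more, by the mean absolute difference of log2 CPM after each gene's own mean over the 12 libraries was subtracted. Fabp4 was closest to Swi5 (0.0595), Pparg (0.0598) and Tkt (0.0619). Fabp5 was closest to Dnajc15 (0.117), Cidec (0.125) and Bcat2 (0.135), and Aqp7 to Fabp5 (0.164), Cidec (0.165) and Ephx2 (0.175). Both were thus near Cidec, a lipid droplet protein. Cd36 was closest to Scrn3 (0.0408), Pnpla8 (0.0444) and Ppp2r5a (0.0449), and Lpl to Pdzd11 (0.041), Nfe2l1 (0.0481) and Cnnm2 (0.0492). Slc27a1 was closest to Gnao1 (0.119), Abcg1 (0.174) and Tspan18 (0.177). Slc27a3 was closest to Snai1 (0.126), Serpina3i (0.138) and Serpina3n (0.139), and Slc27a4 to Gne (0.06), Lrpap1 (0.0666) and Saraf (0.0682).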

How the data were processed

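The authors extracted RNA from the cultured adipocytes with TRIzol, sequenced it on a NovaSeq instrument and, per the labels' processing notes, used bcl2fastq 2.17.1.14, cutadapt 1.9.1, HISAT2 2.0.1 and HTSeq 0.6.1 with the genome GRCm38. The deposited values are raw read counts per gene, without normalization; the 12 library files equalled the table. The strand setting is not given in the sources used here. Genotypes and replicate numbers came from the sample titles.

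Counts were analysed with edgeR 4.0.16 in R 4.3.3. Genes were filtered with filterByExpr (minimum count 10, minimum total 15), libraries were scaled by TMM, and the 12 libraries entered 1 quasi-likelihood fit. Tests were two-sided, and p-values were adjusted over 15117 genes by the Benjamini-Hochberg method. The log2 CPM used a prior count of 2. The steps were tested on simulated counts in which a small set of genes was changed in TD only, with rises and falls equally likely. That does not test the scaling of library sizes where many genes change. DESeq2 1.42.0, other scalings and filters and left-out libraries were alternatives. The biological coefficient of variation was 12.9%. Gene models were taken from GENCODE M21 (99.8% of identifiers matched) and promoters from RefSeq.

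The genes and lists were chosen with earlier results of these data known, and they include partners by role. The genes named are the 9 members, the genes fixed by role, and the largest rise and fall called in each list; likeness used genes of at least 10 CPM. A result among the other lipid-binding proteins is not reported here.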

Additional observations from a re-analysis of the deposited data

Results flagged for a closer look

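Among 24 sets of 4 libraries (8 genes in 3 genotypes), 2 held a library whose gap to its nearest neighbour, divided by the range, exceeded Dixon's critical value for 4 samples; chance alone gives about 1 in 20. Cd36 in WT 2 was low, at 1399 CPM against 1597 to 1631 in the other WT libraries. Slc27a1 in TA 4 was high, at 918 CPM against 794 to 801 in the other TA libraries. The cause of neither was tested, and Slc27a1 in TA against WT was called without TA 4 as well.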

How the results depend on the processing

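The 24 values of the 8 genes in 3 comparisons had the same direction and call with DESeq2 size factors, with at least 10 counts required in every library, with the replicate block and without mitochondrially encoded genes. The count of the 8 genes higher in TD against WT was 2 in place of 1 with unscaled library totals and with the 2 genotypes alone, where Slc27a1 was called. The count lower in TA against WT was 1 in place of 0 with DESeq2 (Lpl), and the count higher was 3 in place of 5 with the 2 genotypes alone. Leaving out single libraries gave 1 to 5 genes higher in TA against WT: 1 without WT 1 or WT 3, 2 without TA 1, TA 2 or TA 4, and 3 without WT 2. The value of Cd36 in TA against WT turned to -0.0226 without WT 2, -0.0102 without TA 1 and -0.0496 without TA 2, the lowest of a range that reached 0.0769. The genes called in TD against TA, 2524 of all genes, ran from 1422 (without TA 2) to 3521, with 1584 without TD 3 and 1432 without TD 4.

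Leaving out the mitochondrially encoded genes, TD 3 with TD 4, or WT 2 with TA 3 was chosen after the data were seen. Without TD 3 and TD 4 together, 1516 genes were called in TD against WT in place of 4418, 634 in TD against TA, and 3 of the 8 genes were lower in TD against WT in place of 5; the setting also has fewer samples. Slc27a3 in TD against TA turned to -0.0127. Libraries of different genotypes that share a replicate number were no more alike than others. After the genotype means were removed, same-numbered libraries correlated at -0.237 to 0.196 and differently numbered ones at -0.257 to 0.264. With the number as a replicate block 4246, 1560 and 2488 genes were called in TD against WT, TA against WT and TD against TA. Depth limits Fabp3, at 14 counts or fewer in each library.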
